A study of Mus musculus with 2 samples.

Results

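Pancreatic duct cells secrete a bicarbonate-rich fluid, and 8 genes of that machinery were followed in mouse pancreas with and without deletion of the nardilysin gene: Cftr, Slc4a4, Slc4a2, Slc26a6, Slc26a3, Slc12a2, Car2 and Atp1b1. They were taken as the array probes whose RefSeq accession belongs to these genes, which gave 12 probes for 8 of the 22911 genes named on the array. All 8 genes had a probe, and 7 had at least 1 probe well above background on both arrays. The exception was Slc26a3.

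The series compared whole pancreas of 1 WT mouse and 1 Nrdc-cKO mouse, both C57BL/6 males aged 5 weeks. Nardilysin is a metalloendopeptidase encoded by Nrdc. The Nrdc-cKO mouse carried Ptf1a-Cre and loxP-flanked (flox/flox) Nrdc alleles. Ptf1a is active in the progenitors of the pancreas and later in acinar cells, so Cre under its control acts in what descends from them. Duct cells are among these, and fat, blood, vessel and stromal cells are not. The labels call the control WT and do not say whether it carried Cre or flox alleles.

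In the duct, carbonic anhydrase makes bicarbonate from carbon dioxide, and sodium-bicarbonate cotransport brings more in from the blood side. Apical anion exchangers and the chloride channel CFTR pass bicarbonate and chloride into the lumen, under the control of secretin and cAMP. The sodium pump supplies the sodium gradient that drives the uptake steps. The exchanger Slc4a2 and the cotransporter Slc12a2 sit in the basolateral membrane and set the chloride and pH of the cell.

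With 1 array per group there is no spread between animals and no test, and the number of arrays limits the precision. Each difference below describes these 2 arrays. Levels are log2 processed signals relative to the 75th percentile of the array, and a difference is Nrdc-cKO minus WT. Spike-in scaling, an alternative, sets the arrays equal on 8 control probes for RNA added during labelling and raises every difference by 1.90. A difference counted as called at 1 or more on the log2 scale, which is 2-fold. The array software reported an error for each spot, which propagates to 0.20 to 0.31 on the log2 scale for the member probes detected on both arrays and leaves out animal, dissection and labelling. Detection differed, with 46.3% of non-control spots well above background for WT and 60.3% for Nrdc-cKO. Nrdc itself was lower, from 1.93 to -1.28, a difference of -3.21 by 1 probe, and the labels do not say whether that probe lies in the deleted part.

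The 8 genes split. Slc4a4, Car2 and Atp1b1 were each about 4-fold higher on the Nrdc-cKO array, while Slc26a6 and Cftr were each about 3-fold lower (slightly higher with spike-in scaling) and Slc4a2 and Slc12a2 stayed within 2-fold. Cftr rested on 1 probe near the lower end of detection and was at -0.92 under loess, a signal-dependent scaling. With background correction by normexp and quantile scaling, Cftr was at -0.49 and Slc26a6 at -0.98. As background, 13001 genes were measured on both arrays, of which 12.8% passed 2-fold upward and 17.3% downward, together 30.1%. Among the 7 measured members, 3 were higher and 2 lower. Their median of -0.19 was close to that of all genes, -0.18. In bulk tissue, fewer cells of a type and less RNA per cell cannot be told apart.

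**Figure D1:**
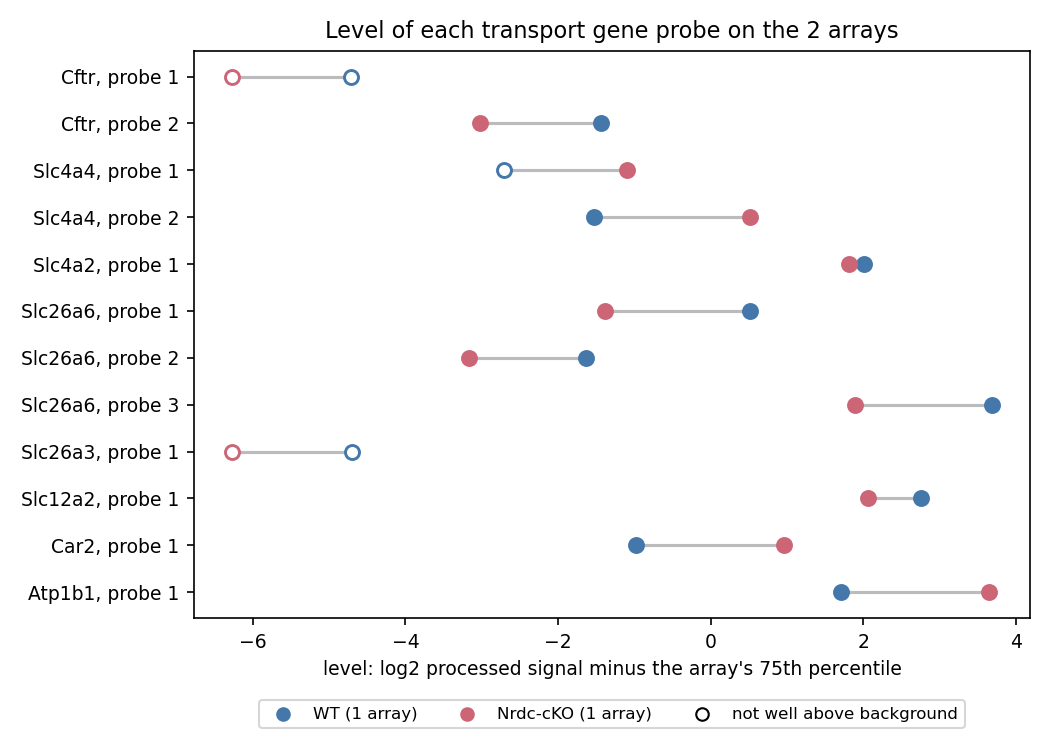
Level of each of the 12 probes of the 8 genes on the WT and the Nrdc-cKO array, as log2 processed signal minus the array's 75th percentile, with open circles for probes not well above background. The Slc4a4, Car2 and Atp1b1 probes lie further right on the Nrdc-cKO array, and the 3 Slc26a6 probes further left, the latter only as long as the arrays are not scaled on their spike-in controls.

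Promoter sequence was searched for 6 of the 8 genes, not Car2 or Slc12a2, from 250 bases before to 50 after each listed start. The windows of Slc4a4 (the upstream of its 2 starts) and Atp1b1, which were higher, are set beside those of Cftr and Slc26a6, which were lower, as RefSeq sequence on build GRCm38.p6. Capitals mark motifs found on either strand, searched as the GC box GGGCGG, the TATA box TATAAA, the hexamer GTTAAT, the cAMP response element TGACGTCA, its shorter form TGACG and its variant TGACATCA.
Slc4a4, chr5:88887010-88887309, plus strand: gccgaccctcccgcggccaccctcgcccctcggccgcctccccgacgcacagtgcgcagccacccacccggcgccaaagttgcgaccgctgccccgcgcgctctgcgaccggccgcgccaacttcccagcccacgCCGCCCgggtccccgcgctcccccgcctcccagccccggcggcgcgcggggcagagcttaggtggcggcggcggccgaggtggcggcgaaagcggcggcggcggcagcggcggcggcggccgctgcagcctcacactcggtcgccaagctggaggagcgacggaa
Atp1b1, chr1:164458306-164458605, minus strand: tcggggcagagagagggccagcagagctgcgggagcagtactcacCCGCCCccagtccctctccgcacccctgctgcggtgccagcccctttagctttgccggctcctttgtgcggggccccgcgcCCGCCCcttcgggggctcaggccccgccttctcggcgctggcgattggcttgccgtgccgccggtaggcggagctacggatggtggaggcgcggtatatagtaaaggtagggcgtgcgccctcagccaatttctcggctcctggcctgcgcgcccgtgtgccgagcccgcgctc
Cftr, chr6:18170437-18170736, plus strand: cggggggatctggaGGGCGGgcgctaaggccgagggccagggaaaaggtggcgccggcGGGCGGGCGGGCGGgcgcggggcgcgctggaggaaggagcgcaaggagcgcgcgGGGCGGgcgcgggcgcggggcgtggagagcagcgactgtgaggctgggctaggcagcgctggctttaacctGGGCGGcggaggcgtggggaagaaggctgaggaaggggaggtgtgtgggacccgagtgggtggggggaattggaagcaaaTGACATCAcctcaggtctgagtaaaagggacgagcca
Slc26a6, chr9:108853793-108854092, plus strand: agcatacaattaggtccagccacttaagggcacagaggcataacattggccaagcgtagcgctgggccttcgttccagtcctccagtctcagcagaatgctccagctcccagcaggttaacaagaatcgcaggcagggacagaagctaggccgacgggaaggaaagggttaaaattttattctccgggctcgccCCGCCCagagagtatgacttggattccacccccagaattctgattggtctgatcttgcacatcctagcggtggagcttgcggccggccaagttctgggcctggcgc
The GC box, in 35.7% of all 32851 promoter windows, was present in all 4, with 1 match in Slc4a4, 2 in Atp1b1, 6 in Cftr, of which 3 overlap, and 1 in Slc26a6. The variant TGACATCA, in 3.62% of windows, was found only in the Cftr window among those of the members, 13 bases after the listed start. None of the 4 windows held TATAAA (13.6% of windows), GTTAAT (7.1%), TGACG (20.8%) or TGACGTCA (1.79%). The window of Slc26a3 held 2 GTTAAT matches and 1 TATAAA. The GC content was 80% for Slc4a4, 71% for Atp1b1, 71.3% for Cftr and 56% for Slc26a6, against a median of 52.7%. The higher and the lower genes were not separated by these letters, and a match is a description of the window only.

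Slc4a4 encodes NBCe1, the electrogenic sodium-bicarbonate cotransporter that loads duct cells with bicarbonate from the blood side. Its probe detected on both arrays read a signal of 24.5 in WT and 324 in Nrdc-cKO, before scaling. The scaled level went from -1.53 to 0.51, a difference of 2.04 (4.11-fold), above 96.5% of all genes. A separate Slc4a4 probe read 10.8, not well above background, in WT and 106 in Nrdc-cKO, which puts it at least 2.90-fold higher. A probe detected on the Nrdc-cKO array only can give an upward bound or none, so this probe is no separate support for the direction.

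Car2, the cytosolic carbonic anhydrase that hydrates carbon dioxide to bicarbonate, read 36.0 in WT and 443 in Nrdc-cKO. Its level moved from -0.97 to 0.96, a difference of 1.94 (3.83-fold), with a software error of 0.23. It rested on 1 probe. Car2 is also abundant in red blood cells, whose markers are given with the other cell types.

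Atp1b1 encodes the beta subunit that the sodium pump needs to fold and to reach the membrane. Its probe read 233 in WT and 2852 in Nrdc-cKO, a level of 1.72 against 3.65. The difference was 1.93 (3.82-fold), with a software error of 0.20. The differences of Slc4a4, Car2 and Atp1b1 lay within 0.11 of each other, less than the error of any of them.

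Slc26a6 encodes an apical exchanger that passes bicarbonate out in return for chloride, and it was the lowest of the 7 measured genes. Its 3 probes covered a wide span of signal. The brightest read 912 in WT and 847 in Nrdc-cKO, the next 101 and 87.5, and the dimmest 22.9 and 25.2. After scaling their differences were -1.79, -1.89 and -1.55, and the mean was -1.74 (3.35-fold lower). The dimmest probe had an unscaled ratio of 1.10, near the 1.09 of a Cftr probe at background, so it is no separate support. The direction rests on the scaling, and spike-in scaling puts the gene at 0.15. The unscaled signals differed little between the arrays, while the 75th percentile went from 70.8 to 227.

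Cftr, the cAMP-gated anion channel of the apical membrane, was near the lower end of detection. Of its 2 probes, 1 was well above background, with a signal of 26.2 in WT and 28.0 in Nrdc-cKO. Its level was -1.43 and -3.02, a difference of -1.59 (3.01-fold lower) with a software error of 0.31. Its unscaled ratio of 1.07 was close to the 1.09 of the other Cftr probe, which was not well above background on either array. A difference of this size on the scaled levels was thus also what a probe at background showed, and with spike-in scaling the detected probe stood at 0.31.

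Slc26a3, an apical chloride-bicarbonate exchanger best known from the colon, was not well above background on either array. Its 1 probe read 2.72 in WT and 2.94 in Nrdc-cKO, and it is given no difference. Slc26a3 RNA was therefore not detectable with this probe in either pancreas.

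The members of the basolateral membrane that carry chloride differed less. Slc4a2, the exchanger AE2, read 284 and 800 on the WT and Nrdc-cKO arrays, a level of 2.01 against 1.81. Its difference of -0.19 was smaller than its software error of 0.20, and near the median of all genes, and its sign turned with loess, spike-in scaling, normexp with the 75th percentile and the value table. Slc12a2, the sodium-potassium-chloride cotransporter NKCC1, read 479 and 948, a level of 2.76 against 2.06. Its difference of -0.70 (1.62-fold lower) was larger than that error but below 2-fold, and it was above 0 with spike-in scaling.

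**Figure D2:**
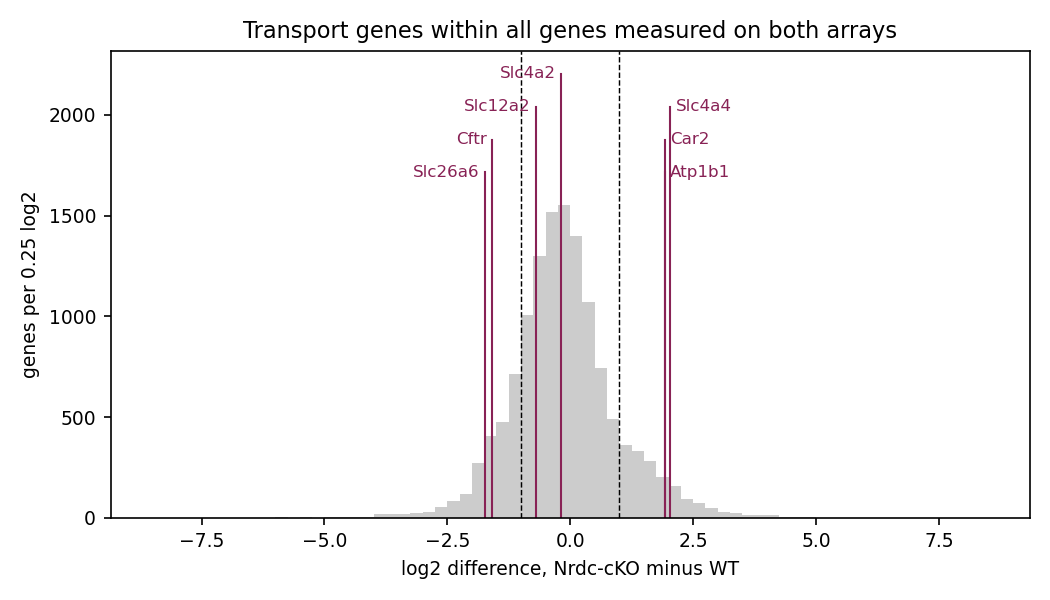
Histogram of log2 differences (Nrdc-cKO minus WT) for all 13001 genes measured on both arrays, with a vertical line for each of the 7 measured members and dashed lines at 2-fold either way. Slc4a4, Car2 and Atp1b1 lie in the upper tail above 95.9% of genes, and Cftr and Slc26a6 lie in the lower tail, above 6.93% and 5.19% of genes (both are above 0 with spike-in scaling).

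The distance between members does not depend on any scaling by a constant. Slc4a4 stood 3.63 above Cftr and 3.78 above Slc26a6 on the log2 scale of differences, and Slc12a2 1.04 above Slc26a6. The gap between the lowest of Slc4a4, Car2 and Atp1b1 and the highest of the other measured members was 2.12. With loess, quantile scaling or normexp, which bend the scale with signal, the gap ran from 0.86 to 2.02, so the same 3 genes lay above the other 4 in each of the 9 scalings. Below them the order was Slc4a2, Slc12a2, Cftr and Slc26a6, except that Cftr lay above Slc12a2 with normexp and quantile scaling.

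Ranks within each array need no scale between arrays, but a probe of equal signal ranks lower on the array where more probes are bright. The Car2 probe went from the 67.6 percentile of all probes on the WT array to the 81.7 on the Nrdc-cKO array, and the detected Slc4a4 probe from 63.3 to 78.6. The Atp1b1 probe went from 85.5 to 94.7. The 3 Slc26a6 probes ranked lower on the Nrdc-cKO array, from 94.0 to 87.3, from 78.4 to 64.0 and from 62.4 to 48.3, and the detected Cftr probe from 64.1 to 49.7. Slc4a2 ranked at 87.1 and 86.8, and Slc12a2 at 90.7 and 88.1. The Cftr and Slc26a3 probes at background ranked lower on the Nrdc-cKO array too, from 20.2 to 14.0 and from 20.8 to 14.0. The ranks thus do not settle the direction of the lower members.

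The direction of the lower members depended on the scaling. In the authors' value table, whose constants moved the median of all genes by 0.50, Slc26a6 stood at -1.25 and Cftr at -1.09. With scaling on the spike-in controls, which moved it by 1.90, Slc26a6 stood at 0.15 and Cftr at 0.31, so no member was lower there, and Slc4a2 and Slc12a2 joined the higher genes at 1.70 and 1.20. Slc4a4, Car2 and Atp1b1 were past 2-fold in every alternative that measured them, between 1.03 and 3.94. Relative to the median of all genes, the members kept their places under spike-in scaling.

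**Figure D3:**
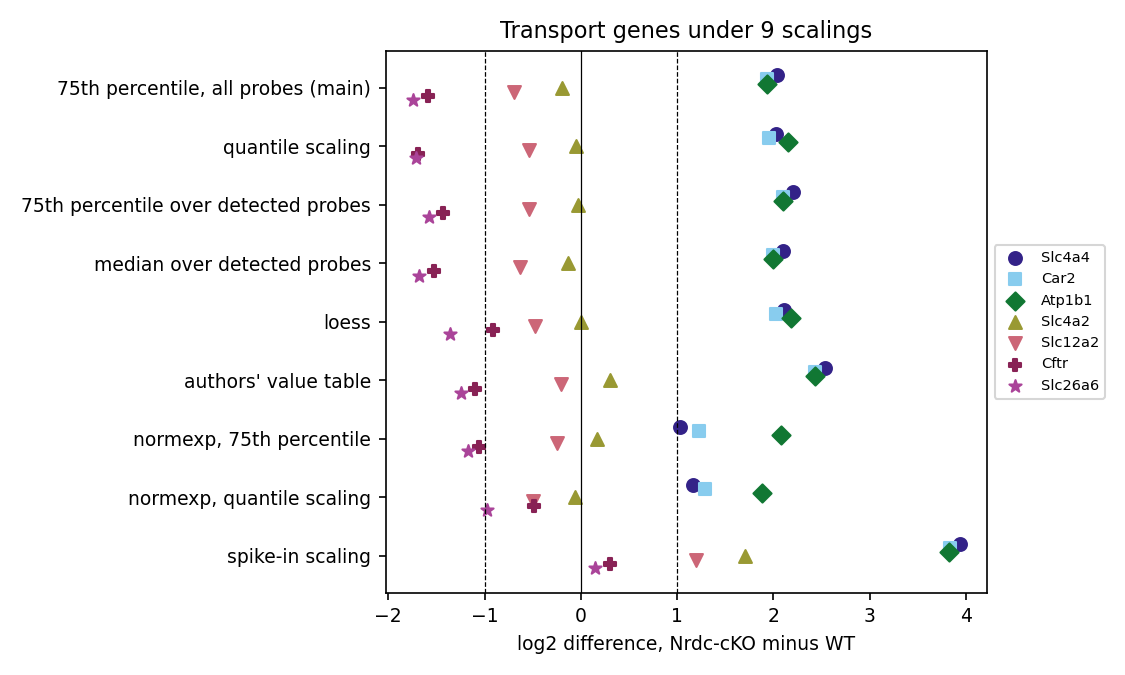
Log2 difference, Nrdc-cKO minus WT, of the 7 measured members under 9 ways of scaling the arrays, with a solid line at 0 and dashed lines at 2-fold. Slc4a4, Car2 and Atp1b1 stay to the right of the other members in each, while Cftr and Slc26a6 cross 0 with spike-in scaling only.

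Relatives of the members in the same transport families were mixed. Of 17 other SLC4 and SLC26 anion carriers, 5 were measured on both arrays, with 1 past 2-fold upward and 1 downward and a median of 0.23. Slc4a3, an anion exchanger best known from heart and brain, was higher at 1.56. The lower one, Slc4a9, was at -1.48, or 0.42 with spike-in scaling. Slc4a7, the electroneutral sodium-bicarbonate cotransporter and a close relative of Slc4a4, stood at 0.23. Slc26a9, an anion channel of the same family as Slc26a6, passed detection in Nrdc-cKO only and gave no bound, and Slc4a11 and Slc26a10, detected there only too, were at least 2.03-fold and 1.24-fold higher. A further 7 were not well above background on either array.

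Among the other carbonic anhydrases the Car2 difference had no counterpart of its size in the genes measured on both arrays. Of 8 measured, 0 passed 2-fold upward and 1 downward, around a median of -0.13. The lower one was Car14 at -1.20 (0.70 with spike-in scaling), and the membrane-anchored Car4 stood at -0.47, turning positive with loess, spike-in scaling and the value table. Car3, an abundant protein of fat and muscle, was well above background in Nrdc-cKO only, at least 518-fold higher, and of the 11 other markers on the fat cell list 6 were detected on that array only, all 6 with bounds of at least 2-fold. Car13 was at least 1.07-fold higher, and Car12 was not well above background on either array.

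Subunits of the sodium pump differed from one another. Of 11 measured partners of Atp1b1, 3 passed 2-fold upward and 2 downward, around a median of 0.39. The beta subunit Atp1b3 stood at 0.72 by 3 probes. Fxyd5, a pump regulator of epithelia, was higher at 1.96 and the beta subunit Atp1b2 at 1.59. The regulators Fxyd6 (-2.05) and Fxyd7 (-1.09, or 0.81 with spike-in scaling) were lower.

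Of the other cation-chloride cotransporters, 4 were measured, with 1 higher and 1 lower and a median of 0.08. Slc12a4 (KCC1), which moves potassium and chloride out of the cell, was higher at 1.68, and Slc12a8 was lower at -2.49. Slc12a7 and Slc12a5, detected on the Nrdc-cKO array only like 2834 genes in all, were at least 2.42-fold and 2.33-fold higher. None of the 4 measured sodium-proton exchangers and PDZ scaffolds passed 2-fold, and their median was 0.11. Slc9a3r1 (NHERF1), a scaffold that binds CFTR, stood at -0.20, or 1.69 with spike-in scaling and above 0 in the value table too.

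Channels that work beside CFTR went both ways. Of 16 measured chloride, potassium and water channel genes, 2 passed 2-fold upward and 4 downward, around a median of -0.26. The water channel Aqp5 was higher at 3.76 and the calcium-activated potassium channel Kcnn4 at 1.89 by 3 probes. The water channel Aqp12 of acinar cells was lower at -4.34, Lrrc26, an accessory subunit of the potassium channel Kcnma1, at -2.14, and Kcne1, a partner of Kcnq1, at -1.52, the last at 0.38 with spike-in scaling. Aqp1, the water channel of duct cells and vessels, stood at 0.84. Ano1, the calcium-activated chloride channel, stood at -0.23 and above 0 under 6 alternatives. Kcnk5 and Kcnma1 passed detection in Nrdc-cKO only, at least 2.56-fold and 1.30-fold higher.

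Genes of the signals that start ductal secretion stood on both sides. Of 16 measured, 6 passed 2-fold upward and 4 downward, around a median of -0.05. These counts were 6 and 1 under loess, in the value table and with the 75th percentile of detected probes, 2 and 1 under normexp with the 75th percentile, 12 and 0 under spike-in scaling, and 0 and 3 among the 8 genes with bright probes. Over all genes the upward and downward shares were 15.8% and 10.7% under loess and 22.2% and 8.26% in the value table. They were 15.1% and 13.4% with the 75th percentile of detected probes, and 9.58% and 8.81% under normexp with the 75th percentile. Under spike-in scaling they were 79.8% and 0.885%, and for bright probes 7.76% and 15.4%. The purinergic receptors P2ry2 (2.36, with a lowest alternative of 0.99) and P2rx7 (2.31) were higher, as was Prkar2b (2.48), a regulatory subunit of protein kinase A. The secretin receptor Sctr was just past the threshold at 1.01, and between 0.48 and 2.91 over the alternatives. The receptor Vipr1 for vasoactive intestinal peptide was lower at -2.50, its 2 probes at -1.92 and -3.08, and the acinar secretagogue receptors Chrm3 (-1.15) and Cckar (-1.12) were lower as well, though both were above 0 with spike-in scaling. Vip and Adora2a passed detection in Nrdc-cKO only, at least 8.66-fold and 1.14-fold higher.

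The kinases and binding partners that tune these carriers stayed mostly within 2-fold. Of 12 measured genes of the WNK, SPAK and IRBIT group, 0 passed 2-fold upward and 2 downward, around a median of -0.30. The lower ones were Stk39 at -1.24, the SPAK kinase that acts on Slc12a2 and Slc4a4, and Ahcyl2 at -1.06, and both were above 0 with spike-in scaling. Ahcyl1 (IRBIT), a protein that binds and activates the product of Slc4a4, stood at 0.23, with 3 probes between -0.15 and 0.72.

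**Figure D4:**
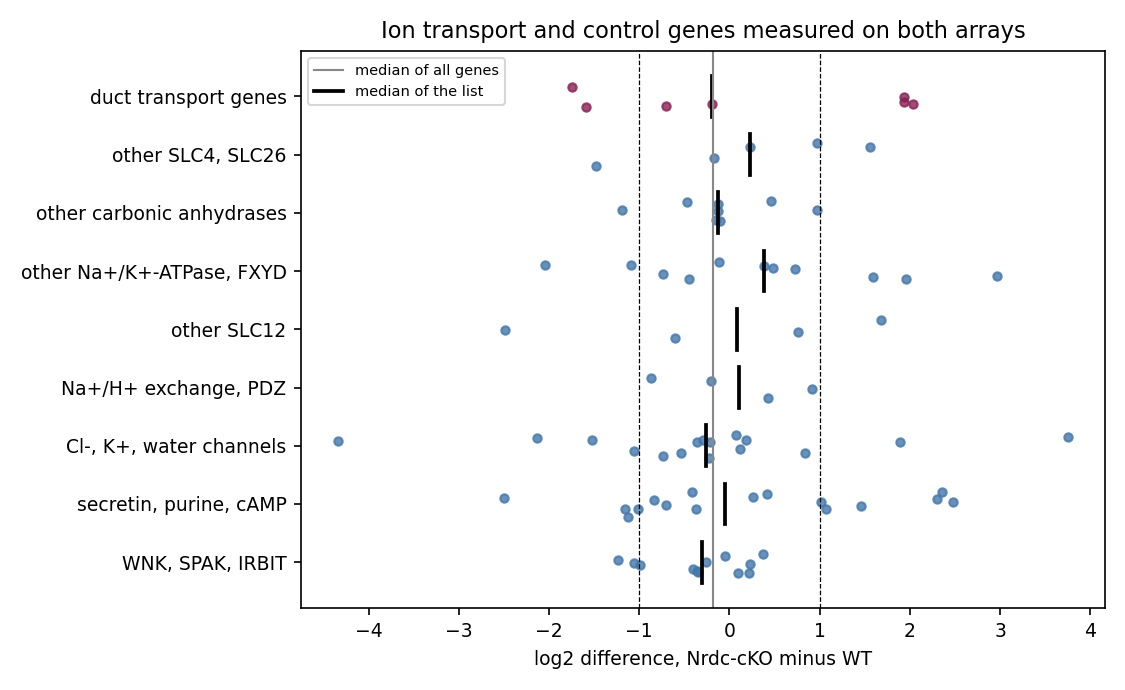
Log2 difference, Nrdc-cKO minus WT, of each gene measured on both arrays, for the 7 measured members and 8 lists of related transport and control genes. Black bars mark list medians, which lie between -0.30 and 0.39, and the grey line marks the median of all genes at -0.18.

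Defining markers of duct cells were detected on both arrays. The keratin Krt19 had a level of 2.67 in WT and 2.92 in Nrdc-cKO, and the transcription factor Sox9 of 0.37 and 0.73, its 2 probes disagreeing at -0.47 and 1.18. The surface protein Epcam differed by 0.67. Of 16 measured duct markers, 4 passed 2-fold upward and 2 downward, around a median of 0.49, and 1 of 18 was not well above background on either array. The summed level of the 16 markers, in multiples of the array's 75th percentile, was 495 in WT and 463 in Nrdc-cKO. Krt18, a keratin that acinar cells also hold, made up 336 and 141 of it, and without Krt18 the sums were 159 and 322. Most of that rise lay in Spp1, whose log2 level was 4.48 in WT and 7.36 in Nrdc-cKO. The sums thus follow single bright genes and do not give the direction of the duct markers as a set.

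Markers of other cell types differed between the arrays too, each sum being over the markers measured on both. Here and for the duct markers the sums are on the main scale. Spike-in scaling raises each Nrdc-cKO sum relative to WT by 1.90 on the log2 scale. Of 18 acinar markers, 17 passed 2-fold downward and 0 upward, around a median of -1.76, and the sums were 63643 and 15634. The count of lower acinar markers was 6 under loess and 5 under quantile scaling, with or without normexp. Of all genes, 10.7% passed 2-fold downward under loess, 14.8% under quantile scaling and 6.51% when normexp preceded it. Under spike-in scaling 3 acinar markers were lower and 1 higher, against 0.885% and 79.8% of all genes. The acinar median was 0.13 under spike-in scaling, where Slc26a6 stood at 0.15 and Cftr at 0.31. It was -0.13 under quantile scaling, where they stood at -1.71 and -1.69, and -0.57 under loess, where they stood at -1.36 and -0.92. In the value table it was -1.27, with Slc26a6 at -1.25 and Cftr at -1.09. Under normexp with the 75th percentile it was -1.20, beside -1.17 and -1.06. With normexp and quantile scaling it was -0.15, beside -0.98 and -0.49. Many acinar markers lay at the bright end of both arrays, such as Cela2a at levels of 12.7 and 11.0. Quantile scaling gives equal ranks equal values, and loess is fitted through that same end. Both thus draw such markers towards 0 by construction, so their acinar medians cannot be set against the members. Of 17 measured islet markers, 15 passed 2-fold upward and 0 downward, around a median of 3.04, with sums of 385 and 2995. Macrophage markers were higher in 11 of 12 (median 2.35, sums 30.02 and 113), stellate cell and fibroblast markers in 11 of 11 measured (median 1.78, sums 225 and 833), and endothelial markers in 4 of 10 (median 0.86, sums 13.9 and 29.8). Of the 8 red blood cell markers measured, 1 was higher and 1 lower, with a median of 0.76 and sums of 3667 and 3013. The alpha globins Hba-a1 and Hba-a2, which dominate the sum, stood at -0.12 and -0.71, while the beta globin genes, Alas2 and Slc4a1 stood between 0.71 and 1.004. The 2 Hba-a1 probes disagreed, at -0.71 and 0.48. Without Hba-a2, the brightest, the red blood cell sums were 1503 in WT and 1688 in Nrdc-cKO. The count of higher markers on this list was 6 under quantile scaling and 5 under loess and in the value table. The shares of all genes past 2-fold upward there were 13.8%, 15.8% and 22.2%. The measured fat markers were higher in 3 of 5 and lower in 1 (Lep at -1.87), with sums of 16.2 and 72.4. These sums leave out 7 fat markers detected on the Nrdc-cKO array only, all 7 with bounds of at least 2-fold. Of 12 gut epithelium markers, 9 were not well above background on either array and 1 of the 2 measured was higher. Of 6 measured lymphocyte markers 2 were higher and 1 lower (median -0.12, sums 14.8 and 19.3), and of 2 measured nerve and Schwann cell markers 1 was higher. The part of these cells in the differences of the members was not tested.

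**Figure D5:**
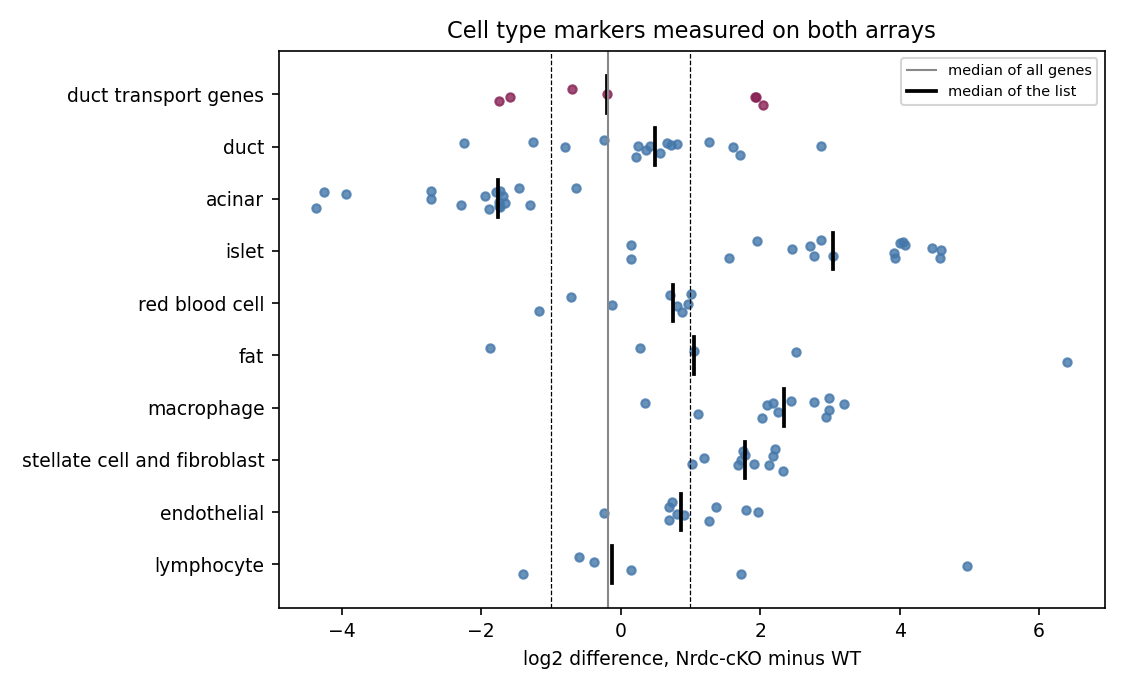
Log2 difference, Nrdc-cKO minus WT, of each cell type marker measured on both arrays, with the 7 measured members in the top row, black bars for list medians and a grey line for the median of all genes. Acinar markers lie to the left with a median of -1.76 (0.13 with spike-in scaling) and islet markers to the right with a median of 3.04, and the members lie on both sides.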

How the data were processed

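Cy3-labelled total RNA of whole pancreas was run on Agilent 1-colour arrays, 1 per group. Groups came from the sample titles. Both arrays lay on 1 slide and were read in 1 scan, per the file headers. For each spot the authors deposited a linear processed intensity, which Agilent Feature Extraction (12.0.3.1 per the file headers, 11.5.1.1 per the submitters' processing notes) had background-corrected and detrended, but not normalized between arrays. The deposited value table held that intensity multiplied by 4.37 throughout for WT and by 1.92 for Nrdc-cKO, so its scale is linear and uncentred (medians 42.5 and 66.0), and no source used here gives the origin of the constants.

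From these, outlier spots (80 and 74) were left out, log2 signals of repeat spots were averaged for 56604 probes, and the 75th percentile over the array was subtracted. No spot was saturated. A gene was the mean over its probes well above background on both arrays. A gene or probe detected on 1 array only was given a bound, the bright level over the higher of the lowest detected level and the probe's own level on the dim array. A gene with several such probes was given the mean of their log2 bounds, over those probes only. Accessions without versions were matched to RefSeq genes of GRCm38.p6, which named 32993 probes for 22911 genes. The array annotation uses mm9, so none of its coordinates are given. Repeat spots of 291 probes had a median SD of 0.032 for the log2 difference. Members and lists were chosen with earlier results of these data known. Named in the text are the 8 members, Nrdc, up to 3 highest and 3 lowest genes past 2-fold and up to 2 bounds per list, and listed relatives and partners of the members, a few genes under this rule being not reported here. Python 3.11.15 and limma 3.58.1 (normexp background correction with an offset of 50, and loess, a signal-dependent curve) were used, with 8 other scalings, dim-probe filters, probe choice and fold thresholds as alternatives, and sums without the brightest marker added after seeing the data, and the gene summary was tested on simulated data. Antisense or overlapping transcripts were not examined.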

Additional observations from a re-analysis of the deposited data

How the results depend on the processing

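No paired analysis was possible because a lone array stood for each genotype, and no replicate could be left out. Matching probes by a gene name column had been planned but could not be done without such a column in the scanner files. The count of higher members, 3, was 5 with spike-in scaling, 1 with bright probes only, where 4 members were measured, and 1 at 4-fold. Of all genes, 79.8% passed 2-fold upward with spike-in scaling and 7.76% with bright probes only. The count of lower members, 2, was 1 with loess, 0 with spike-in scaling, 0 with normexp and quantile scaling, 1 with bright probes only and 0 at 4-fold. The share of all genes past 2-fold downward was 10.7% with loess, 0.885% with spike-in scaling and 6.51% with normexp and quantile scaling. It was 15.4% with bright probes only. No share of all genes at 4-fold is given. The median of the members, -0.19, moved to 1.70 under spike-in scaling, 0.30 in the authors' value table, 0.17 under normexp with the 75th percentile, 0.00458 under loess, -0.0295 under the 75th percentile of detected probes, -0.0481 under quantile scaling and -0.0586 when normexp preceded it. It was -0.45 without the filter on dim probes, where Slc26a3 at background enters, and -0.45 for bright probes alone. Only spike-in scaling turned a called member, Cftr to 0.31 and Slc26a6 to 0.15. Slc4a4 and Car2 were lowest with normexp and the 75th percentile, at 1.03 and 1.22, where the offset of 50 compresses dim signals by construction. The share of higher genes among all genes past 2-fold was 42.5%, and it became 98.9% under spike-in scaling, 72.9% in the value table, 59.7% under loess, 58.0% under normexp and quantile scaling and 53.0% under the 75th percentile of detected probes. It was 27.9% without the filter on dim probes and 33.5% for bright probes alone. Elsewhere the cause of a move was not tested. Signal over background limits Cftr, Slc26a3 and 1 Slc4a4 probe.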

Other observations

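Other genes of the transport and control lists, named here after their values were seen, add to the account of ductal control. Sct, the hormone secretin, was higher on the Nrdc-cKO array at 1.46 and the purinergic receptor P2ry1 at 1.08. The purinergic receptor P2rx4 stood at -0.84, so the receptors for extracellular nucleotides stood on both sides. Adcy6, an adenylyl cyclase that makes cAMP, was lower at -1.01, while the catalytic subunit Prkaca of protein kinase A stood at -0.37. Kcnq1, the potassium channel that Kcne1 joins, was lower at -1.06 by 4 probes that lay between -1.18 and -0.89. The PDZ scaffold Slc9a3r2 (NHERF2) stood at -0.87, its 2 probes at -1.17 and -0.57. Each of the lower values is above 0 with spike-in scaling, which adds 1.90 to every gene.

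The duct markers past 2-fold were on both sides. Osteopontin, Spp1, was higher at 2.88, Bicc1 at 1.72, the cilium gene Pkhd1 at 1.62 and the keratin Krt7 at 1.26. The mucin Muc1 was lower at -2.25 and the keratin Krt18, which acinar cells also hold, at -1.25, the latter above 0 with spike-in scaling. These values were named after they were seen and are given with no explanation.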
